A study of Mus musculus with 28 samples.

Results

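The nuclear genes for subunits of the 5 oxidative phosphorylation complexes were followed in mouse splenic dendritic cells (DCs) that keep or lose the transcription factor gene Irf8. Members were taken by gene symbol alone: symbols that start with Ndufa, Ndufb, Ndufc, Ndufs or Ndufv and a digit (complex I), Sdha to Sdhd (complex II), symbols starting with Uqcr (complex III), with Cox4 to Cox8 (complex IV) or with Atp5 (complex V). They numbered 84 of the 24421 genes in the count tables, with 37 in complex I, 4 in complex II, 8 in complex III, 18 in complex IV and 17 in complex V. Of the 84, 77 passed the filter on low counts and were tested. Some symbols caught by the prefixes name proteins that are not classed as core parts of the complex: Atp5sl is annotated as Dmac2, an assembly factor gene, Cox7a2l encodes a factor of respiratory supercomplexes, and the product of Ndufa4 is now placed in complex IV. They are given under the complex of their prefix. The 13 subunits encoded by mitochondrial DNA were not analysed here.

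RNA was sequenced from 4 groups of sorted spleen cells of untreated C57Bl/6 mice aged 6 to 12 weeks, all of which carried loxP-flanked Irf8 (Irf8fl/fl). The pDC_TG group held 4 libraries of plasmacytoid DCs (pDCs). Their donors were Irf8fl/fl Itgax-cre animals, where sequence of Itgax, the gene of the integrin CD11c, drives Cre. The pDC_WT group held 8 libraries of pDCs, the cDC1_WT group 8 libraries of CD24+ conventional DCs (cDC1s) and the cDC2_WT group 8 libraries of CD172a+ conventional DCs (cDC2s), and these 3 groups came from Irf8fl/fl mice without Cre. The series' design text names the conventional DCs as controls and speaks of 4 replicates. The labels number the mice, but do not say whether a library was made from 1 mouse or a pool, nor how much genomic sequence around Itgax the Cre transgene carries.

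Complexes I to IV pass electrons from NADH and succinate to oxygen and, except for complex II, pump protons across the inner mitochondrial membrane. Complex V, the ATP synthase, lets the protons back and makes ATP. Several complex IV subunits exist as isoforms, and Cox6a2 is the isoform known from heart and skeletal muscle while Cox6a1 is found in most tissues. pDCs are known for making type I interferon, cDC1s for presenting antigen to CD8 T cells and cDC2s for presenting it to CD4 T cells.

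Gene counts ran from 17299285 to 30787679 per library. Irf8, the targeted gene, had 1166 to 1787 CPM (counts scaled to an equal library size) in pDC_TG, with a mean at 23.8% of the pDC_WT mean, against 5379 to 6537 CPM in pDC_WT (exact two-sided permutation p = 0.00202, the smallest that 495 splits can give). Counts are per gene and can include exons outside the deleted part. The summed level of 5 pDC markers was 7140.2 to 9585 CPM in pDC_TG and 7407 to 9642 CPM in pDC_WT, against 82.7 to 109 CPM in cDC1_WT and 83.5 to 99.6 CPM in cDC2_WT. The 5 cDC1 markers summed to 32.1 to 40.9 CPM in pDC_TG, 111 to 176 CPM in pDC_WT, 2033 to 2723 CPM in cDC1_WT and 23.5 to 44.9 CPM in cDC2_WT. The 5 cDC2 markers summed to 998 to 1212 CPM in pDC_TG, 1083 to 1825 CPM in pDC_WT, 9.05 to 32.6 CPM in cDC1_WT and 2312 to 2873 CPM in cDC2_WT, so the pDC groups held a sizeable part of that list. Levels below are CPM scaled by trimmed mean of M-values (TMM) and computed from the deposited counts, and a gene was called at a Benjamini-Hochberg adjusted p below 0.05 in edgeR's quasi-likelihood test over 13159 genes. Single markers moved apart within these sums. In pDC_TG versus pDC_WT, log2 fold changes of the 5 pDC markers ran from -0.66 to 0.55 (median -0.62), with 0 called higher and 1 lower. The 5 cDC1 markers ran from -3.79 to 3.71 (1 higher, 2 lower), and the 5 cDC2 markers from -1.33 to 6.23 (2 higher, 1 lower). Of all genes, 7.72% were called higher and 7.04% lower. In such bulk samples, fewer cells of a type and less RNA per cell cannot be told apart.

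Setting pDC_TG against pDC_WT addresses the change in pDCs that carry Cre together with the loxP-flanked Irf8. Among the subunit genes, 1 isoform gene of complex IV stood apart, and the bulk of the genes of all 5 complexes had no call. Cox6a2, the muscle-type isoform of complex IV subunit 6a, had 635, 690.1, 1331 and 1359 CPM in the 4 pDC_TG libraries, against a lowest value of 271, a median of 368 and a highest value of 517 CPM in pDC_WT. Every pDC_TG library lay above every pDC_WT library, and the 4 pDC_TG values fell into a lower and a higher pair. The log2 fold change (log2FC) was 1.42 ± 0.25 (SE), or 2.67-fold, with adjusted p = 0.000113. On log2(CPM + 1), permuting the 12 libraries exactly gave a two-sided p = 0.00202, again the smallest that 495 splits can give. Cox6a2 kept its call with each library left out in turn, with log2FC 1.23 to 1.58 when the library left out was one of pDC_TG.

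Cox6a1, the widely expressed isoform, did not share the difference. It had 135, 145, 240.2 and 243 CPM in the 4 pDC_TG libraries, against a lowest value of 155, a median of 183 and a highest value of 267 CPM in pDC_WT (log2FC -0.04 ± 0.16, adjusted p = 0.941). Replicates 1 and 2 of pDC_TG lay below every pDC_WT library, and replicates 3 and 4 lay within the pDC_WT range. Divided by exon length, Cox6a2 averaged 1476 ± 581 CPM per kilobase in pDC_TG (SD, n = 4) and 553 ± 122 CPM per kilobase in pDC_WT (SD, n = 8), and Cox6a1 averaged 334 ± 104 CPM per kilobase in pDC_TG and 343 ± 75.1 CPM per kilobase in pDC_WT. Of the summed level per length of both isoforms, Cox6a2 made up 81.1% ± 1.41 in pDC_TG (SD, n = 4) and 61.7% ± 1.75 in pDC_WT (SD, n = 8). The pDC_TG libraries held 79.8% to 82.4%, and the pDC_WT libraries 59.5% to 65.1%, so the 2 groups did not overlap and this share varied far less between libraries than the level of Cox6a2 did. In cDC1_WT the share of Cox6a2 averaged 0.0292% and in cDC2_WT 0.0704%.

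**Figure D1:**
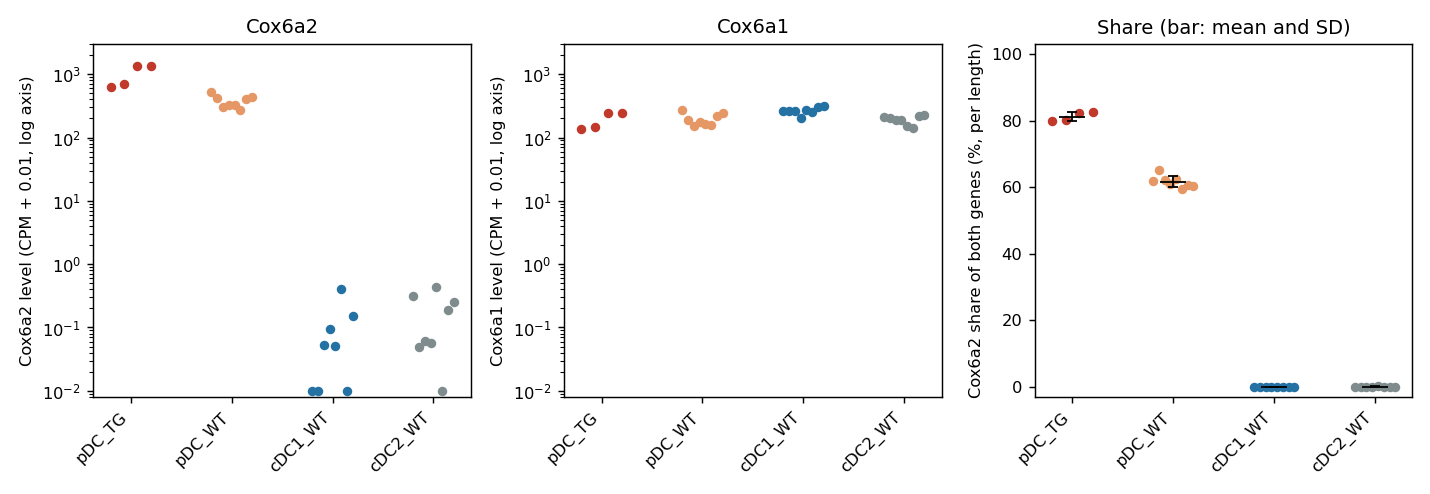
Level of Cox6a2 (left) and Cox6a1 (middle) in each of 28 libraries, in CPM + 0.01 on a log axis, and the share of Cox6a2 in the summed level per length of both (right, percent, with mean and SD). Cox6a2 reached 1359 CPM in pDC_TG and did not exceed 0.419 CPM in cDC1_WT or cDC2_WT, while Cox6a1 stayed within 135 to 318 CPM in every library of the 4 groups.

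In the groups without Cre, Cox6a2 was detected at a substantial level in pDCs alone. The deposited counts for it were 6620 to 13212 reads per library in pDC_WT, against 0 to 11 in cDC1_WT and 0 to 9 in cDC2_WT. It passed the filter on low counts only through the pDC groups, so its difference from the conventional DCs is a description. Since Cox6a2 is known from striated muscle, 13 muscle markers were summed, and they gave 16.5 to 23.9 CPM in pDC_TG, 24.9 to 34.6 CPM in pDC_WT, 40.9 to 73.3 CPM in cDC1_WT and 13.0 to 23.8 CPM in cDC2_WT. The muscle genes Actc1, Myh1, Myh6, Myh7 and Mb were at 0 in every library of both pDC groups.

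Cox6a2 lies at chr7:128205435-128206387 on the minus strand (GRCm38, GENCODE), within the span of the integrin gene Itgad on the plus strand, and 10.3% of its exonic bases are shared with Itgad. The reads carry no strand, so reads in that stretch cannot be assigned to one gene or the other. Of 13 annotated genes within 200 kb, Cox6a2 included, 9 passed the filter, and 4 of these were higher and 1 lower in pDC_TG. Cox6a2, on which the window was centred, is 1 of the 4, and so is Itgad, which shares exonic bases with it. The count is therefore a description. The background over all genes in this comparison was 7.72% higher and 7.04% lower. Itgax, 54.8 kb away, averaged 408 ± 32.9 CPM in pDC_TG (SD, n = 4) and 157 ± 50.2 CPM in pDC_WT (SD, n = 8), with log2FC 1.38 ± 0.17 and adjusted p = 3.73e-07. Itgad averaged 50.5 ± 13.3 CPM in pDC_TG and 12.6 ± 2.85 CPM in pDC_WT, with log2FC 2.01 ± 0.43 and adjusted p = 0.00112. Itgam, the CD11b gene at a distance of 86.9 kb, averaged 31.9 ± 8.49 CPM in pDC_TG and 0.401 ± 0.663 CPM in pDC_WT, with log2FC 6.23 ± 0.65 and adjusted p = 3.29e-08. All 3 integrin genes and Cox6a2 lie on one side of the next tested gene, 9130023H24Rik.

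On the other side no tested gene within 200 kb was higher. Armc5 had log2FC 0.06 (adjusted p = 0.906), BC017158 log2FC 0.09 (adjusted p = 0.883), Tgfb1i1 log2FC 0.44 (adjusted p = 0.899) and 9130023H24Rik log2FC -1.25 (adjusted p = 0.0762). Rgs10, a regulator of G-protein signalling at 167 kb, averaged 23.8 ± 5.96 CPM in pDC_TG and 107 ± 26.5 CPM in pDC_WT, with log2FC -2.17 ± 0.19 and adjusted p = 5.93e-10. The Cre transgene is present in pDC_TG and absent from pDC_WT, so an effect of the transgene and an effect of losing Irf8 cannot be told apart for these neighbours.

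**Figure D2:**
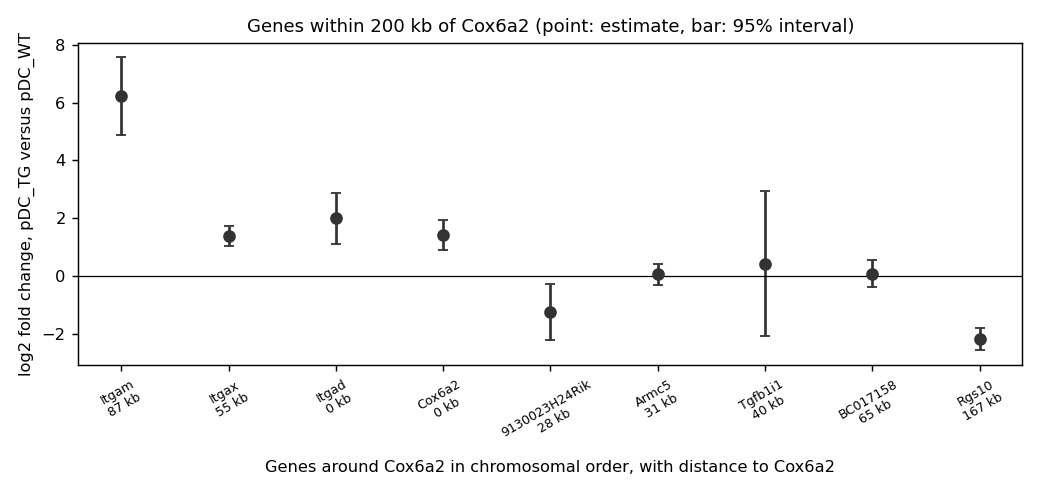
log2 fold change of pDC_TG versus pDC_WT (points, with 95% intervals) for the 9 tested genes within 200 kb of Cox6a2, in chromosomal order with their distance to Cox6a2. Itgam, Itgax, Itgad and Cox6a2 lie together above 0, and Rgs10 lies at -2.17.

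Over all members, 3 of 77 were called higher in pDC_TG (3.90%) and 0 lower, against 7.72% and 7.04% of all 13159 genes (14.8% in either direction). The median log2FC of the members was 0.03, that of all genes tested 0.00, and 9 members had an unadjusted p below 0.05. DESeq2 called 4 members higher and 1 lower. Of the 74 members without a call, 62 had a 95% interval within 1.5-fold in both directions, so for these a larger difference is outside the interval, while for the other 12 the libraries do not settle it. Complexes I, II and III had no call among 35, 4 and 8 tested genes.

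The other called genes were Atp5sl and Cox7a2l. Atp5sl, annotated as the assembly factor gene Dmac2, had 71.8, 60.4, 56.9 and 74.6 CPM in the 4 pDC_TG libraries, against a lowest value of 43.8, a median of 49.8 and a highest value of 57.7 CPM in pDC_WT. The lowest pDC_TG library lay just under the highest pDC_WT library (log2FC 0.40 ± 0.12, adjusted p = 0.018). Cox7a2l, the supercomplex factor, had 141, 179, 189 and 193 CPM in the 4 pDC_TG libraries, against a lowest value of 125, a median of 133 and a highest value of 175 CPM in pDC_WT. Here 2 pDC_WT libraries lay above the lowest pDC_TG library (log2FC 0.35 ± 0.10, adjusted p = 0.0203). Atp5sl lost its call without pDC_TG replicate 1 (adjusted p = 0.073) or 4 (0.098), Cox7a2l without pDC_TG replicate 2 (0.0541), 3 (0.077) or 4 (0.0931), and both with pDC_WT replicates 5 to 8 alone (0.171 and 0.15).

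Only Cox6a2 on the higher side and Atp5s on the lower side showed no overlap between the libraries of both pDC groups, that is 1 member each, against 4.9% of all genes higher and 4.81% lower without overlap. Atp5s, a coupling factor gene, had 4.84, 3.48, 4.46 and 4.88 CPM in the 4 pDC_TG libraries, against a lowest value of 6.50, a median of 8.11 and a highest value of 9.27 CPM in pDC_WT. It did not pass in the fit of all libraries (log2FC -0.85 ± 0.32, adjusted p = 0.0763), but did in the fit of the 2 pDC groups alone (0.0239) and in DESeq2 (0.0259). Cox6b2, known from testis, averaged 0.410 ± 0.356 CPM in pDC_TG and 0.11 ± 0.147 CPM in pDC_WT (adjusted p = 0.125), and DESeq2 called it (0.0366).

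The catalytic and core subunits were close between both pDC groups. Atp5b, the catalytic beta subunit of ATP synthase, had 1119.9, 1145, 1209 and 1225 CPM in the 4 pDC_TG libraries, against a lowest value of 1106, a median of 1214 and a highest value of 1273 CPM in pDC_WT. The pDC_TG values lay within the pDC_WT range (log2FC -0.03 ± 0.05, adjusted p = 0.78). Uqcrfs1, the Rieske iron-sulfur protein of complex III, had 133, 153, 182 and 186 CPM in the 4 pDC_TG libraries, against a lowest value of 171, a median of 188 and a highest value of 233 CPM in pDC_WT. Its pDC_TG libraries lay below the pDC_WT median (log2FC -0.24 ± 0.10, adjusted p = 0.127). Sdha, the flavoprotein of complex II, had log2FC 0.16 ± 0.09 (adjusted p = 0.23), and Ndufs1, the largest iron-sulfur subunit of complex I, had log2FC 0.30 ± 0.13 (adjusted p = 0.122).

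Libraries of one group differed in all subunit genes together. The mean log2 deviation of the members from their group mean was -0.41, -0.19, 0.32 and 0.28 in pDC_TG replicates 1 to 4, and it spanned -0.25 to 0.43 in pDC_WT. The same libraries deviated alike for 204 other short genes (up to 1000 bases of exon, at least 20 CPM, ribosomal protein genes left out). Across the 8 libraries of a group, the members and these other short genes gave Pearson's r = 0.995 in pDC_WT, 0.991 in cDC1_WT and 0.994 in cDC2_WT, with Spearman's rho 0.952, 0.976 and 1 and exact permutation p for r of 0.000198, 9.92e-05 and 4.96e-05. Adjusted over 4 relations, p for r was 0.000265, 0.000198 and 0.000198. Without the 2 libraries farthest from the median, r was 0.990, 0.989 and 0.988. Members with up to 1000 bases of exon had a median coefficient of variation of 32.1% in pDC_TG, 26.4% in pDC_WT, 17.4% in cDC1_WT and 19.6% in cDC2_WT, and longer members 18.9%, 15.7%, 12.4% and 11.4% in the same groups. What makes libraries differ in short genes was not tested.

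**Figure D3:**
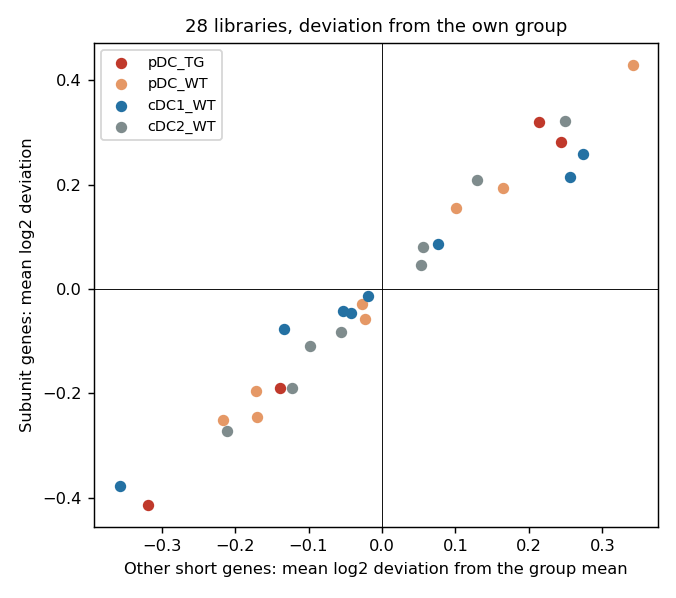
Mean log2 deviation of the subunit genes from their group mean (vertical axis) against that of 204 other short genes (horizontal axis), 1 point per library, coloured by group. Points lie along a rising line, with pDC_TG replicate 1 at -0.41 and pDC_WT replicate 8 at 0.43 near its ends.

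Cox6a2 moved with the other members across the 8 pDC_WT libraries (Pearson's r = 0.809, exact permutation p = 0.0166, Spearman's rho 0.810, exact p = 0.0218, r = 0.792 without the 2 libraries farthest from the median). With the mean level of the other short genes as a covariate in the fit, Cox6a2 kept its call (log2FC 1.27, adjusted p = 2.46e-05). In that fit 5 members were higher and 5 lower: Sdha (log2FC 0.19) was among the higher ones, and the lower ones were Cox4i1 (-0.19), Atp5c1 (-0.24), Uqcrfs1 (-0.28), Cox7b (-0.28) and Ndufa11 (-0.30). The count of lower members thus depended on how differences between libraries were treated. The share of all genes called in that fit is not given here, so its counts are not set against a background.

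The 3 comparisons among the groups without Cre ask how the machinery differs between DC types. They share libraries, since each WT group enters 2 of them and pDC_WT enters the comparison with pDC_TG as well. cDC1s held the highest mean for 60 of the 77 tested members and cDC2s the lowest for 52. pDC_TG held the highest mean for 11, pDC_WT for 5 and cDC2_WT for 1. These counts rest on TMM scaling, and the same counts over all genes were not made. Summed over all 84 members, the level averaged 11975 ± 2202 CPM in pDC_TG (SD, n = 4), 11227 ± 1393 CPM in pDC_WT, 13899 ± 1504 CPM in cDC1_WT and 9875 ± 899.5 CPM in cDC2_WT (SD, n = 8 each). Complex V made up the largest part, with 4361 ± 509 CPM in pDC_TG, 4354 ± 371 in pDC_WT, 5958 ± 495 in cDC1_WT and 4023 ± 243 in cDC2_WT. Cox6a2 alone accounts for 1004 CPM of the sum over all members in pDC_TG and for 376 CPM in pDC_WT.

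**Figure D4:**
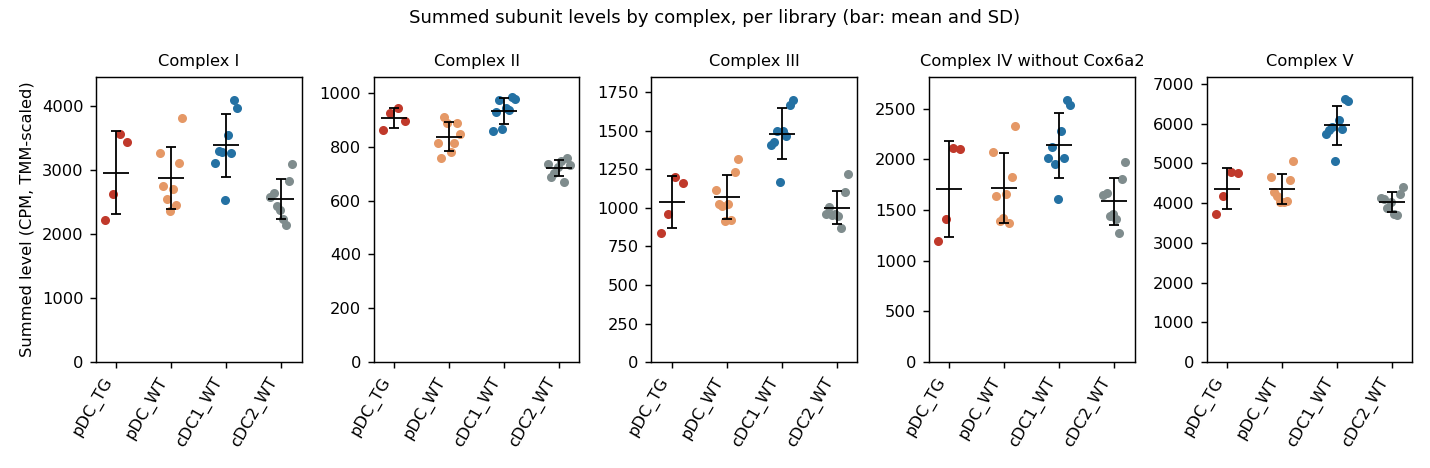
Summed CPM of the members of each complex in every library (points), with the mean and SD of each group. Complex IV is drawn without Cox6a2, and for every complex the mean of cDC1_WT is the highest and that of cDC2_WT the lowest of the 4 groups.

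cDC1_WT against cDC2_WT gave the widest difference: 56 of 77 members were higher in cDC1_WT and 1 lower, against 22.8% and 23.4% of all 13159 genes (46.2% in either direction), with a median log2FC of 0.46 over the members and -0.01 over all genes tested. By complex, 23 of 35 tested genes of complex I were higher, 3 of 4 of complex II, 7 of 8 of complex III, 9 of 13 of complex IV and 14 of 17 of complex V. Libraries without overlap were found for 15 members on the higher side and 2 on the lower side, against 10.4% and 10.8% of all genes. Short genes outside the complexes leaned the same way: of the 204, 51.0% were higher and 16.7% lower in cDC1_WT, with a median log2FC of 0.34. Members of up to 1000 bases had a median log2FC of 0.46 and longer members one of 0.48, while genes of at least 4000 bases had one of -0.13. With WT replicates 1 to 4 alone, 22 members were higher and 2 lower.

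pDC_WT against cDC1_WT gave 7 higher and 42 lower members, against 30.3% and 30.6% of all genes (60.9% in either direction), with a median log2FC of -0.36. By complex, 16 of 35 tested genes of complex I were lower, 1 of 4 of complex II, 4 of 8 of complex III, 8 of 13 of complex IV and 13 of 17 of complex V. These counts include Cox6a2 and Cox6b2, which passed the filter only through the groups where they are high. Without them, 0 of 11 tested complex IV genes were higher and 7 lower. Among all tested members, the libraries of 2 lay wholly higher and those of 8 wholly lower, against 14.3% and 16% of all genes. Cox6a2 was among the higher ones and Cox6b2 among the lower ones. With total counts as library sizes, a scaling that moved the median of all genes to 0.28, the split was 14 higher and 23 lower, and with WT replicates 1 to 4 alone 24 members were lower. pDC_WT against cDC2_WT gave 26 higher and 5 lower members, against 28.3% and 28.8% of all genes (57.1% in either direction), with a median log2FC of 0.15. The higher ones were 12 of complex I, 2 of complex II, 3 of complex III, 3 of complex IV and 6 of complex V, a share close to that of all genes, whereas few members were lower. Without Cox6a2 and Cox6b2, 2 of 11 tested complex IV genes were higher and 1 lower. Among all tested members, 4 lay wholly higher and 1 wholly lower than cDC2_WT, against 13.7% and 15.6% of all genes. Cox6a2 was again among the higher ones, and the lower one was Cox6b2. With total counts the split was 39 higher and 2 lower, and with the short-gene covariate 13 were lower.

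**Figure D5:**
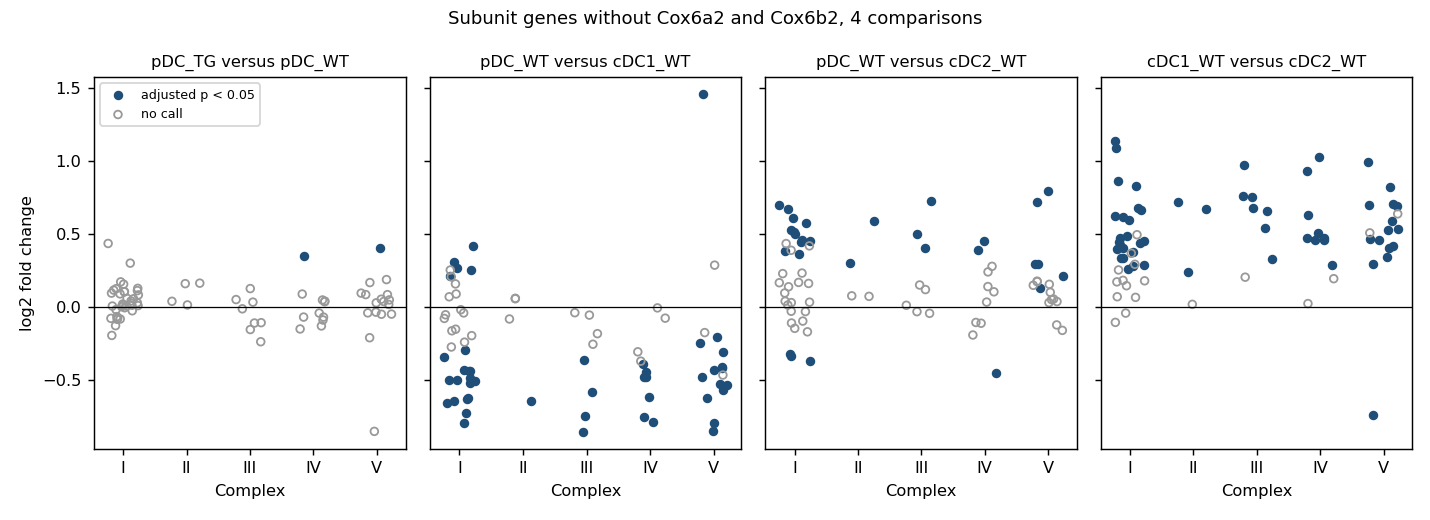
log2 fold change of each tested member by complex in the 4 comparisons, with Cox6a2 and Cox6b2 left out because of their scale; filled points were called at adjusted p below 0.05. The points of cDC1_WT versus cDC2_WT lie mostly above 0 in all 5 complexes, and those of pDC_TG versus pDC_WT lie around 0 with 2 filled points.

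In complex V, Atp5b, the catalytic beta subunit, ran from 1106 through a median of 1214 to 1273 CPM in pDC_WT, from 1666 through 1765 to 1899.6 CPM in cDC1_WT, and from 1043 through 1092 to 1154 CPM in cDC2_WT. All cDC1_WT libraries lay above all libraries of the other 3 groups, while pDC_WT and cDC2_WT overlapped. Its log2FC was -0.57 ± 0.04 for pDC_WT versus cDC1_WT (adjusted p = 4.15e-13), 0.14 ± 0.04 for pDC_WT versus cDC2_WT (0.00641) and 0.70 ± 0.04 for cDC1_WT versus cDC2_WT (7.17e-15). Atp5b was also the member with the highest level per length in each WT group, at 627 ± 27.1 CPM per kilobase in pDC_WT (where Cox4i1 came within the spread at 626 CPM per kilobase), 929.9 ± 41.9 in cDC1_WT and 571 ± 18.6 in cDC2_WT (SD, n = 8 each), and in pDC_TG it came second to Cox6a2, at 613 ± 26.3 CPM per kilobase (n = 4). The alpha subunit gene Atp5a1 followed with log2FC -0.31 ± 0.05 for pDC_WT versus cDC1_WT and 0.34 ± 0.05 for cDC1_WT versus cDC2_WT, and the gamma subunit gene Atp5c1 with -0.41 ± 0.08 and 0.71 ± 0.08.

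The 3 genes of the c ring of ATP synthase encode the same mature protein, and they did not move in step. Atp5g3 ran from 166 through a median of 181 to 263 CPM in pDC_WT, from 279.8 through 337 to 424 CPM in cDC1_WT, and from 154 through 176 to 210.3 CPM in cDC2_WT. No cDC1_WT library overlapped with the other WT groups. Its log2FC was -0.84 ± 0.11 for pDC_WT versus cDC1_WT and 0.99 ± 0.11 for cDC1_WT versus cDC2_WT, that of Atp5g1 was -0.79 ± 0.14 and 0.82 ± 0.14, and that of Atp5g2 was -0.24 ± 0.10 and 0.30 ± 0.10. Of the summed level per length of the 3 genes, Atp5g3 made up 67.7% ± 0.979 in pDC_TG, 70.5% ± 0.945 in pDC_WT, 76.9% ± 0.854 in cDC1_WT and 69.1% ± 0.867 in cDC2_WT. Atp5g2 made up 26.4% ± 1.36, 23.8% ± 0.837, 17.2% ± 0.922 and 24.9% ± 1.07 in the same groups, and Atp5g1 between 5.67% and 6.04%. The size of these shares rests on unequal exon lengths: 4.912 kilobases for Atp5g1, 1.675 for Atp5g2 and 0.724 for Atp5g3. Without division by length, the pDC_WT means were 108 CPM for Atp5g1, 153 for Atp5g2 and 196 for Atp5g3. Other lengths were not tried for these genes. Of the 75-base windows of Atp5g2, 86.9% also occur in another annotated gene, mostly Gm10175, so its counts are uncertain.

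Atp5sl, an assembly factor gene placed in complex V by its prefix alone, was the only member there called higher in pDC_WT than in cDC1_WT. It averaged 65.9 ± 8.61 CPM in pDC_TG, 49.9 ± 4.32 in pDC_WT, 18.1 ± 2.24 in cDC1_WT and 30.3 ± 4.32 in cDC2_WT, with log2FC 1.46 ± 0.10 for pDC_WT versus cDC1_WT (adjusted p = 9.23e-14), 0.72 ± 0.10 for pDC_WT versus cDC2_WT (2.4e-07) and -0.74 ± 0.10 for cDC1_WT versus cDC2_WT (2.84e-07). It was the only member called lower in cDC1_WT than in cDC2_WT in this fit; Cox6b2 also lay lower in cDC1_WT without overlap, but was not called (log2FC -1.35 ± 0.64, adjusted p = 0.0839). Atp5s was higher in pDC_WT than in cDC2_WT, with log2FC 0.80 ± 0.25 (adjusted p = 0.0084).

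Complex I split within its core, the subunits that carry the flavin and the iron-sulfur clusters or bind quinone. Among the core genes described here, Ndufs3 (log2FC 0.25 ± 0.10), Ndufs7 (0.31 ± 0.09) and Ndufv1 (0.21 ± 0.08) were higher in pDC_WT than in cDC1_WT. Ndufs1 (-0.43 ± 0.11) and Ndufv2 (-0.50 ± 0.11) were lower, and Ndufs8 had no call (-0.02 ± 0.10). Ndufs7, which binds the last iron-sulfur cluster before quinone, ran from 93.2 through a median of 99.1 to 116 CPM in pDC_WT, from 56.8 through 86.1 to 98.6 CPM in cDC1_WT, and from 64.5 through 74.8 to 82.8 CPM in cDC2_WT. The pDC_WT libraries overlapped with those of cDC1_WT and lay above all those of cDC2_WT. The accessory subunit gene Ndufa11 was also higher in pDC_WT than in cDC1_WT (0.42 ± 0.17). With WT replicates 5 to 8 alone, Ndufs3, Ndufs7, Ndufv1 and Ndufa11 did not pass, and the count of members higher in pDC_WT was 4 rather than 7 without cDC1_WT replicate 2, without cDC1_WT replicate 4 or without pDC_WT replicate 8.

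The accessory subunits of complex I carried most of its differences in the other direction. Ndufs4, an accessory subunit of the electron input module, averaged 56.8 ± 12.8 CPM in pDC_WT, 98.6 ± 19.4 CPM in cDC1_WT and 55.5 ± 6.67 CPM in cDC2_WT, with log2FC -0.79 ± 0.13 for pDC_WT versus cDC1_WT (adjusted p = 6.47e-06). Ndufb2 had log2FC -0.72 ± 0.19 in that comparison (adjusted p = 0.00165). Ndufb11, a membrane arm subunit, ran from 121 through a median of 168 to 197 CPM in cDC1_WT and from 62.5 through 71.0 to 104 CPM in cDC2_WT. These libraries did not overlap, and the log2FC of 1.14 ± 0.12 (adjusted p = 4.83e-09) was the largest among the members called between the 2 conventional types. Ndufa12 followed at 1.09 ± 0.15 (adjusted p = 2.65e-07). Against cDC2_WT, pDC_WT was higher in Ndufv3 (log2FC 0.70 ± 0.13) and Ndufa11 (0.67 ± 0.17) and lower in Ndufa8 (-0.37 ± 0.10), Ndufb8 (-0.32 ± 0.13) and Ndufc2 (-0.33 ± 0.13).

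Complex II, the succinate dehydrogenase, differed through its smaller subunits. Sdha, the flavoprotein, averaged 379.6 ± 53.8 CPM in pDC_TG, 339 ± 39.5 in pDC_WT, 325 ± 21.6 in cDC1_WT and 321 ± 18.9 in cDC2_WT, with no call in any of the 4 comparisons. Sdhd, a membrane anchor, ran from 161 through a median of 177 to 218 CPM in pDC_WT, from 221 through 289 to 322 CPM in cDC1_WT, and from 145 through 167 to 204 CPM in cDC2_WT. Its cDC1_WT libraries lay above all libraries of the other WT groups, with log2FC -0.64 ± 0.09 for pDC_WT versus cDC1_WT (adjusted p = 2.06e-07) and 0.72 ± 0.09 for cDC1_WT versus cDC2_WT (5.01e-08). Sdhb, the iron-sulfur subunit, was lowest in cDC2_WT instead: pDC_WT averaged 208 ± 22.0 CPM, cDC1_WT 219.6 ± 26.4 and cDC2_WT 138 ± 13.7, with log2FC 0.59 ± 0.09 for pDC_WT versus cDC2_WT (adjusted p = 1.3e-06). Sdhc, the other anchor, had log2FC 0.30 ± 0.07 in that comparison (adjusted p = 0.000759).

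In complex III, Uqcrfs1 ran from 171 through a median of 188 to 233 CPM in pDC_WT, from 265 through 325 to 380.2 CPM in cDC1_WT, and from 168 through 189.6 to 217 CPM in cDC2_WT. cDC1_WT lay above both other groups without overlap, and pDC_WT and cDC2_WT could not be separated (log2FC 0.01 ± 0.08, adjusted p = 0.903). The log2FC was -0.74 ± 0.08 for pDC_WT versus cDC1_WT (adjusted p = 3.6e-09) and 0.76 ± 0.08 for cDC1_WT versus cDC2_WT (4.97e-09). Uqcrb, a small accessory subunit, had -0.85 ± 0.17 and 0.97 ± 0.17 in these comparisons, and the core protein genes Uqcrc1 and Uqcrc2 had -0.36 ± 0.06 and 0.33 ± 0.06, and -0.58 ± 0.09 and 0.54 ± 0.09. Uqcr11 and Uqcrq were higher in pDC_WT than in cDC2_WT (log2FC 0.73 ± 0.19 and 0.50 ± 0.19).

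In complex IV, 5 of the 18 genes did not pass the filter: Cox4i2, known from lung, Cox7a1 and Cox8b, known from striated muscle, and Cox7b2 and Cox8c, known from testis. Cox7b2, Cox8b and Cox8c had no count in any library, and Cox4i2 was at 0 in all but 1. So of the tissue isoforms in this complex, Cox6a2 in pDCs was the one at a level near or above that of its widely expressed partner. Cox6b2 stayed low. It passed the filter through the conventional DCs and averaged 0.410 ± 0.356 CPM in pDC_TG, 0.11 ± 0.147 in pDC_WT, 1.37 ± 0.535 in cDC1_WT and 3.49 ± 0.802 in cDC2_WT, or at most 2.41% on average of the summed level per length with Cox6b1.

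The widely expressed complex IV genes followed the order seen elsewhere, with exceptions. Cox7b ran from 56.8 through a median of 82.2 to 113 CPM in pDC_WT, from 97.7 through 128 to 171 CPM in cDC1_WT, and from 46.9 through 62.1 to 85.1 CPM in cDC2_WT. cDC1_WT lay above cDC2_WT without overlap (log2FC 1.03 ± 0.17, adjusted p = 1.08e-05). Cox5a and Cox5b, both widely expressed, were lower in pDC_WT than in cDC1_WT (log2FC -0.48 ± 0.10 and -0.61 ± 0.16). Cox7c had log2FC -0.79 ± 0.24 in that comparison and 0.93 ± 0.24 in cDC1_WT versus cDC2_WT, but 50.4% of its 75-base windows also occur in another gene, mostly Gm10012. Cox4i1, the ubiquitous subunit 4 isoform, had no call between pDC_WT and cDC1_WT (-0.00 ± 0.11) and was higher in pDC_WT than in cDC2_WT (0.45 ± 0.11, adjusted p = 0.000765). Cox8a, the widely expressed isoform of subunit 8, averaged 201 ± 63.9 CPM in pDC_TG, 195 ± 45.1 in pDC_WT, 205 ± 28.2 in cDC1_WT and 149 ± 23.0 in cDC2_WT, and was higher in pDC_WT than in cDC2_WT (0.39 ± 0.14, adjusted p = 0.0163). Cox6b1 had no call in any of the 4 comparisons. Cox7a2 averaged 77.5 ± 28.7 CPM in pDC_TG, 82.3 ± 22.5 in pDC_WT, 108 ± 18.5 in cDC1_WT and 69.6 ± 12.1 in cDC2_WT, and was higher in cDC1_WT than in cDC2_WT (0.63 ± 0.16, adjusted p = 0.00219). Ndufa4, placed in this complex today, had log2FC -0.62 ± 0.15 for pDC_WT versus cDC1_WT and 0.60 ± 0.15 for cDC1_WT versus cDC2_WT. Cox7a2l was lower in pDC_WT than in cDC1_WT (-0.48 ± 0.09) and than in cDC2_WT (-0.45 ± 0.09, adjusted p = 4.67e-05), and the conventional types had no call between them (0.03 ± 0.09, adjusted p = 0.849).

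In complex I, Ndufa4l2, known as hypoxia-induced, was at 0 in all but 1 library, and Ndufs5 had 0 to 18 reads in every library. Ndufs5 is a constitutive complex I subunit. Of its 75-base windows, 17.1% occur in another annotated gene, most often in BC002163, and what keeps its count near 0 was not tested. For Atp5l, 76.0% of the windows are shared, mostly with Gm10221, so its values are uncertain too.

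Promoters of genes for the electron transport chain are known to bind NRF1 (nuclear respiratory factor 1) and the ETS factor GABP. The sequences below show, for 1 member of each complex, the 250 bases before the start of the gene, with matches to the motifs of these factors in capitals. Each was chosen because it holds at least 1 such match. RefSeq promoter windows (GRCm38.p6, 250 bases before to 50 after the start) were found for 66 of the 84 members.
Ndufa11 (chr17:56717512-56717761, plus strand): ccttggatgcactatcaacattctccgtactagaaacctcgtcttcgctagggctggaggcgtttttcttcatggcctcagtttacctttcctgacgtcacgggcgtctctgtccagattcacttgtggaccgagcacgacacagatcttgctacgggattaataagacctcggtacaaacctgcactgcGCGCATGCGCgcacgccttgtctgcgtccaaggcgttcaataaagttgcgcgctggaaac
Sdhd (chr9:50603850-50604099, minus strand): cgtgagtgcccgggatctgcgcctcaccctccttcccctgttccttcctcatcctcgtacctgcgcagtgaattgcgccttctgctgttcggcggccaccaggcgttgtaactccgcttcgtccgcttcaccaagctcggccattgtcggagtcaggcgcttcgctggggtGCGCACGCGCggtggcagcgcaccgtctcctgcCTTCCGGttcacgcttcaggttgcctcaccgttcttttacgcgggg
Uqcr11 (chr10:80406822-80407071, minus strand): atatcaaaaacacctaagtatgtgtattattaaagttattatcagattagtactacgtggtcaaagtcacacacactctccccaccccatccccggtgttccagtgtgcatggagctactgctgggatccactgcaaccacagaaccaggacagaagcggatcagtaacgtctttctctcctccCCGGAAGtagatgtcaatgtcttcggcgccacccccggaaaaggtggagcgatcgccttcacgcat
Cox6a1 (chr5:115348959-115349208, minus strand): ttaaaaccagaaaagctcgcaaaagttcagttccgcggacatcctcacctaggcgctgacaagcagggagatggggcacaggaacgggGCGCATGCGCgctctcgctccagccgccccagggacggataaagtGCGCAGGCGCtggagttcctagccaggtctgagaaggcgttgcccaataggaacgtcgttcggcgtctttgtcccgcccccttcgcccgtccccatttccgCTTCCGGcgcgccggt
Atp5g2 (chr15:102671048-102671297, minus strand): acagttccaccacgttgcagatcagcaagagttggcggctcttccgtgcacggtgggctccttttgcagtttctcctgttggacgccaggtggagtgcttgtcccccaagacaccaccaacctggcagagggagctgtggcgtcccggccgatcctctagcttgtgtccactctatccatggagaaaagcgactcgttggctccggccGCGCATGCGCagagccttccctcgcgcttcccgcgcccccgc

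The capitals mark 2 motifs, searched on both strands. One is a palindrome with GCGC on each side of any 2 letters, which is the NRF1 site where those letters are AT. The other is the ETS site CCGGAAG, which reads CTTCCGG from the other strand. Ndufa11, Cox6a1 and Atp5g2 hold the NRF1 site itself, Sdhd holds the looser palindrome and an ETS site, and Uqcr11 an ETS site alone. Over all members, the NRF1 site was in a 300-base window of 5 of 66 (7.58%), against 1.47% of 17492 genes with such a window. In these shares, a gene with more than 1 window counted as matched if any of them held the motif. The looser palindrome was in 18 of 66 (27.3%), against 9.61%, and CCGGAAG in 16 of 66 (24.2%), against 12.9%. Other motifs were closer to the share of all genes or below it: the E-box CACCTG was in 21.2% of the members and 22.1% of all genes, the E-box CAGCTG in 9.09% and 17.4%, CCAAT in 43.9% and 42.3%, and TATAAA in 10.6% and 14.8%. The interferon response core (GAAA on each side of any 2 letters) was in 3.03% of the members and 3.94% of all genes, and the ETS and IRF composite element (GGAA before and GAAA after any 2 letters) in 0% and 2.98%. Such matches are letters in a window, and binding was not measured.

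Other genes of the pathway were taken from fixed lists. Of 44 tested assembly factors, 1 was higher (2.27%) and 3 lower (6.82%) in pDC_TG, against 7.72% and 7.04% of all genes. The higher one was Oxa1l, an inner membrane insertase gene (log2FC 0.47 ± 0.15, adjusted p = 0.0329), chosen after its value was seen. The lower ones were Coa5 (log2FC -0.50 ± 0.09, adjusted p = 0.000262), a complex IV assembly factor, Ttc19 (-0.61 ± 0.16, adjusted p = 0.00952), of complex III, and Tmem126b (-0.52 ± 0.17, adjusted p = 0.0314), of complex I. Their median log2FC was 0.08. In pDC_WT versus cDC1_WT 18.2% were higher and 25% lower, against 30.3% and 30.6% of all genes. In pDC_WT versus cDC2_WT 34.1% were higher and 11.4% lower, against 28.3% and 28.8%, and in cDC1_WT versus cDC2_WT 25% were higher and 6.82% lower, against 22.8% and 23.4%. Atpaf1, which helps assemble the ATP synthase head, had log2FC 1.29 ± 0.13 for pDC_WT versus cDC1_WT (adjusted p = 5.53e-10), and Ndufaf6, a complex I factor, had -2.01 ± 0.24 (adjusted p = 1.98e-08).

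Of 15 tested genes of electron carriers and ADP/ATP exchange, 0 were higher and 1 lower (6.67%) in pDC_TG, against 7.72% and 7.04% of all genes, and 4 had an unadjusted p below 0.05. The lower one was Ucp2, an uncoupling protein family gene, with log2FC -0.59 ± 0.10 (adjusted p = 4.56e-05). Cycs, the gene of cytochrome c, averaged 154 ± 14.9 CPM in pDC_WT, 464 ± 64.6 in cDC1_WT and 209 ± 22.2 in cDC2_WT, with log2FC -1.59 ± 0.09 for pDC_WT versus cDC1_WT (adjusted p = 1.6e-15). Atpif1, an inhibitor of ATP hydrolysis by complex V, averaged 55.5 ± 14.7 CPM in pDC_WT, 341 ± 59.2 in cDC1_WT and 82.1 ± 17.6 in cDC2_WT, with log2FC -2.62 ± 0.17 (adjusted p = 3.03e-14). Both were further apart between pDC_WT and cDC1_WT than any complex subunit other than Cox6a2 and Cox6b2. In this list 1 gene was higher and 10 lower in pDC_WT than in cDC1_WT (6.67% and 66.7%, against 30.3% and 30.6% of all genes). In pDC_WT versus cDC2_WT 6 were higher and 5 lower (40% and 33.3%, against 28.3% and 28.8%), and in cDC1_WT versus cDC2_WT 13 were higher and 0 lower (86.7%, against 22.8% and 23.4%).

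Of 77 mitochondrial ribosomal protein genes, 2 were higher (2.6%) and 0 lower in pDC_TG, against 7.72% and 7.04% of all genes: Mrps6 (log2FC 1.29 ± 0.14, adjusted p = 1.03e-07) and Mrpl13 (0.53 ± 0.12, adjusted p = 0.00258). In cDC1_WT versus cDC2_WT 50 were higher and 0 lower (64.9%, against 22.8% and 23.4% of all genes). In pDC_WT versus cDC1_WT 3 were higher and 28 lower (3.9% and 36.4%, against 30.3% and 30.6%), so the lower share lay near that of all genes. In pDC_WT versus cDC2_WT 27 were higher and 6 lower (35.1% and 7.79%, against 28.3% and 28.8%). Of 20 tested regulators of mitochondrial biogenesis, 0 were called in pDC_TG, against 7.72% and 7.04% of all genes, and 3 had an unadjusted p below 0.05. In pDC_WT versus cDC1_WT 15% were higher and 25% lower, against 30.3% and 30.6% of all genes. The shares were 10% and 30% in pDC_WT versus cDC2_WT (28.3% and 28.8%), and 5% and 15% in cDC1_WT versus cDC2_WT (22.8% and 23.4%). Ppargc1a and Myc were named for their small adjusted p in comparisons of WT groups. Ppargc1a, the gene of the coactivator PGC-1alpha, averaged 5.89 ± 2.62 CPM in pDC_TG, 1.60 ± 0.628 in pDC_WT, 0.0371 ± 0.0622 in cDC1_WT and 1.59 ± 1.49 in cDC2_WT, with adjusted p = 0.074 for pDC_TG versus pDC_WT. Myc averaged 1.54 ± 1.36 CPM in pDC_WT, 26.5 ± 14.5 in cDC1_WT and 34.1 ± 6.73 in cDC2_WT. Across the WT groups, Myc was higher in both conventional types than in pDC_WT, and Ppargc1a was near 0 in cDC1_WT. They are 2 of the 20 tested regulators, and a relation of either to the subunit genes was not tested.

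Markers of other cells also differed between the groups. The summed level of 7 macrophage markers was 2.91 to 5.86 CPM in pDC_TG, 3.11 to 10.4 CPM in pDC_WT, 77.0 to 142 CPM in cDC1_WT and 452 to 548 CPM in cDC2_WT. That of 9 neutrophil markers reached 196 CPM in pDC_TG replicate 4, 4.59 CPM at most in the other pDC_TG libraries and 2.62 CPM in pDC_WT, and the 5 of these 9 markers that were tested were all called higher in pDC_TG. In cDC1_WT replicate 4 it was 22.0 CPM, against 1.64 CPM at most in the other cDC1_WT libraries. The 5 T cell markers in the files summed to 65.8 to 93.6 CPM in pDC_TG and 57.7 to 115 CPM in pDC_WT, against 2.26 to 12.4 CPM in cDC1_WT and 11.1 to 30.6 CPM in cDC2_WT. The 6 B cell markers lay between 56.2 and 118 CPM in every group, and 7 erythroid markers at 2.53 CPM or less. Without pDC_TG replicate 4, Cox6a2 had log2FC 1.23 (adjusted p = 0.00201). The part of other cells in the remaining differences was not tested.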

How the data were processed

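RNA-seq counts per gene, deposited by the authors as 1 file per library, were the only values used. Per the labels' protocols, 4 ng of RNA were amplified with a SMART-Seq kit and 15 PCR cycles and read as 75-base single reads, without molecular identifiers or strand. The submitters' processing notes name TopHat2 2.1.0 and the mm10 build, and for read trimming, quality checks and file handling Trimmomatic 0.35, FastQC 0.11.4 and SAMtools 0.1.18. The counting tool and its annotation are not given in the sources used here. Reads on no feature (8.23% to 18.7%) and ambiguous reads (1.04% to 1.57%) stayed out of all totals, and intervals cover counting error and library spread only.

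Genes passing filterByExpr of edgeR 4.0.16 (R 4.3.3; minimum count 10, minimum total 15) numbered 13159. All 28 libraries were fitted by group, with TMM scaling, and edgeR's quasi-likelihood test was adjusted by Benjamini-Hochberg over all 13159 genes; the SE is the log2 fold change divided by the square root of F. Replicates of a group carry different mouse numbers in the labels. The alternatives were other scalings, no filter, DESeq2 1.42.0, fewer libraries, a replicate block and, added after seeing the data, a covariate for short genes. Exon lengths and coordinates come from GENCODE M21 (GRCm38); 83 of 84 members had a length. Promoters come from RefSeq (GRCm38.p6).

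The members and lists were chosen with earlier results of these data known. Named genes were those with the largest called changes per complex and comparison, the core and tissue isoform genes, the list genes with the smallest adjusted p, and tested genes within 200 kb of Cox6a2. A result that falls under this rule but is withheld is not reported here. On simulated counts for pDC_TG versus pDC_WT (12019 genes), 99% of 2-fold and 51% of 1.5-fold changes were recovered, with 6 false calls. Every simulated gene had the same spread, all groups started from the pDC_WT means, and genes at low levels were left unchanged. Deviations shared by the short genes of a library were not simulated, so these rates do not give the power in the real libraries. No 2 libraries of a group agreed within sampling noise (lowest chi-square per degree of freedom 33.6 over 90 pairs). Libraries of the 3 WT groups share mouse numbers 1 to 8 in the labels, read here as the same animals, so the numbers pair them; each library correlated best with its own number, and deviations of same-numbered libraries correlated at r = 0.0828 to 0.322; those of pDC_TG and pDC_WT did not (-0.0534 to 0.0521).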

Additional observations from a re-analysis of the deposited data

Results flagged for a closer look

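In 11 of 184 sets of 1 gene in 1 group (46 named genes in 4 groups), the highest or lowest library lay far from the others by Dixon's test, which chance does in about 1 in 20 sets. pDC_WT replicate 8 was the high library for 5 of them. There Cox7a2l had 174.9 CPM against 125 to 142.5 CPM in the other pDC_WT libraries, Ndufa4 had 182 CPM against 86.8 to 129.8 CPM, and Atp5c1 had 597 CPM against 413 to 478 CPM. Ndufc2 had 119 CPM there against 62.2 to 85.1 CPM, and Ndufa12 70.1 CPM against 37.6 to 51.0 CPM. In the same library the members as a whole lay 0.43 (log2) above their pDC_WT mean and the 204 other short genes 0.34 above theirs.

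cDC1_WT replicate 4 was the low library for Cox7a2, with 68.4 CPM against 102 to 131 CPM, and for Ndufv3, with 32.0 CPM against 41.7 to 48.5 CPM. Cox6a2 had 0.399 CPM (11 reads) in cDC1_WT replicate 6 against 0 to 0.144 CPM in the other cDC1_WT libraries. Ndufc2 had 128 CPM in cDC2_WT replicate 8 against 90.6 to 107 CPM, Atp5a1 703 CPM in pDC_WT replicate 5 against 804 to 871 CPM, and Ndufs4 79.1 CPM in pDC_TG replicate 3 against 47.9 to 52.7 CPM.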

How the results depend on the processing

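In pDC_TG versus pDC_WT, 3 members were higher, 1 with WT replicates 5 to 8 alone, 5 with the short-gene covariate and 2 to 3 with 1 library left out. The count of lower members was 0, against 1 with DESeq2, 1 with only both pDC groups fitted, 5 with the covariate and 7 with the block and the covariate (0 to 0 with 1 library left out). In pDC_WT versus cDC1_WT, 7 were higher: 14 with total counts as library sizes, 2 with WT replicates 5 to 8 alone, and 4 to 7 with 1 library left out. Lower were 42, against 23 with total counts and 24 with WT replicates 1 to 4 alone. In pDC_WT versus cDC2_WT, 26 were higher, against 17 with WT replicates 5 to 8 alone. Lower were 5, against 2 with total counts, 3 with WT replicates 5 to 8 alone, 13 with the covariate, 14 with the block and the covariate, and 3 to 6 with 1 library left out; without cDC2_WT replicate 7 or 8, or pDC_WT replicate 2, 3, 4 or 6, it was 3. In cDC1_WT versus cDC2_WT, 56 were higher, against 22 with WT replicates 1 to 4 alone. Lower was 1, against 2 with total counts, 2 with DESeq2, 2 with only both groups fitted and 2 with WT replicates 1 to 4 alone. Fits on 4 WT libraries a group hold fewer samples; the cause of the other shifts was not tested. The shares of all genes called in these alternative fits are not given here.

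Total counts moved the median of all genes in pDC_WT versus cDC1_WT to 0.28 (log2), and there Cox4i1 (0.25), Atp5g2 (0.0041) and Ndufs8 (0.23) reversed their sign; relative to that median the members lay at -0.39 under both scalings. The share of Cox6a2 without division by length was 83.7% in pDC_TG and 65.7% in pDC_WT. With the replicate block the counts were 3 and 0, 7 and 43, 28 and 5, and 60 and 1 (higher and lower, in the order above), and the block changed no call of the first fit other than these gains. Of all genes, that fit called 8% and 7.52%, 30.7% and 30.6%, 28.7% and 29.3%, and 23.1% and 24% in the same order. The block also joined pDC_TG libraries with WT libraries of the same number, which came from mice of another genotype. For pDC_TG versus pDC_WT it is thus no true pairing, alone or with the covariate, and cannot serve as a check. Depth limits the genes under about 1 CPM, among them Cox6b2 in pDCs.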

Other observations

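Over the 8 mouse numbers that each have a library of every WT cell type, the direction within a number was the same in all 8 pairs for 55 members higher and 2 lower in cDC1_WT than in cDC2_WT, against 18% and 17.2% of all genes tested. In pDC_WT versus cDC1_WT 7 members were higher and 35 lower in all 8 pairs, against 21.8% and 23.5% of all genes, and in pDC_WT versus cDC2_WT 25 were higher and 6 lower, against 21.3% and 22.6%. The counts with pDC_WT include Cox6a2 as higher and Cox6b2 as lower.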
